A study of Schizosaccharomyces pombe with 22 samples.

Results

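Cytochrome c oxidase (complex IV) is the last enzyme of the mitochondrial respiratory chain. It takes electrons from cytochrome c, passes them to oxygen and pumps protons across the inner membrane. Its catalytic core is made in the mitochondrion, while the surrounding subunits and cytochrome c are encoded in the nucleus and imported. In fission yeast the nuclear genes of respiration are known to be under the CCAAT-binding Php complex, which reads the letters CCAAT in promoters. The genes described here were chosen by name. No measured value entered the rule, but earlier results of these data were known. The list holds the nuclear subunit genes cox4, cox5, cox6, cox7, cox8, cox9, cox12 and cox13 and the cytochrome c gene cyc1. Probes were found for 8 of these 9 genes among 5035 probe names on the expression arrays, and intergenic probes named for the same 8 genes were found on the chromatin arrays. The cox7 gene, for a small membrane subunit, was not analysed here because no probe carried its name.

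The series measured Schizosaccharomyces pombe (fission yeast) on spotted arrays in a study of Pst3, a homolog of Sin3, the scaffold protein of histone deacetylase complexes. It holds 22 samples. The groups were 2 RNA samples of a strain called pst3nmt Hu1505, described as repressed, in which pst3 is under the repressible nmt promoter, against 8 RNA samples labelled wt. The repressed samples carry Cy5 on replicate 1 and Cy3 on replicate 2 and may be 1 extract. Wild-type replicates 2 to 8 were scanned in both dyes, while replicate 1 had values of 1 channel only. In chromatin, 2 samples held Pst3-GFP immunoprecipitates against wild-type input on intergenic probes, and 4 samples titled Pst3-GFP against beads were split evenly over intergenic and coding probes. Histone H3 immunoprecipitates were labelled hst2D, hst4D and wt, with 1 sample per label and probe type. The labels give no medium, time of repression or age of culture. Nothing in them names separate cultures, and the p-values below thus cover array-to-array spread that may be technical.

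The arrays have limits that touch every value below. The median net signal of coding probes was 1576 and 3660 on the arrays labelled pst3 repressed, and 386 to 3792 on the wild-type arrays. The arrays labelled pst3 repressed lay on a print (a production layout of the array) of their own, wild-type replicates 1 to 5 on another and replicates 6 to 8 on yet another, so print and pst3 label cannot be told apart. The pst3 probe had log2 levels of 10.23 and 10.06 on the arrays labelled pst3 repressed, within the wild-type range of 9.76 to 10.95 (difference -0.07, SE 0.39, limma adjusted p = 0.945). Measured pst3 therefore did not show the repression named by the label, and the groups are called by their labels.

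By RefSeq on build ASM294v3, cox4 lies on chromosome I at 711235 to 712354, cox6 at 2814293 to 2815495 and cox8 at 3042749 to 3043307. On chromosome III, cox9 lies at 1042384 to 1042934, cox5 at 1357794 to 1358712, cyc1 at 1714622 to 1715798, cox12 at 1781404 to 1782074 and cox13 at 2046412 to 2047387. The genes are short, with coding lengths of 177 bases in cox9 to 561 bases in cox5, split over 1 exon in cox5 and cyc1 to 6 exons in cox13. All but 1 base of the cox8 gene lies, on the minus strand, inside the annotated transcript of mvd1 (diphosphomevalonate decarboxylase, an enzyme of sterol synthesis), which runs from 3041111 to 3043306 on the plus strand. The sources used here do not state whether the probes were read with strand. Signal of cox8 and of an mvd1 transcript reaching that far thus cannot be told apart. The same limit holds for cox4, cox5, cox6 and cox12, which annotated transcripts of the opposite strand overlap. Overlaps were 484, 376 and 138 bases in cox4, the last with sxa2, and 703 bases in cox5. They were 210 and 743 bases in cox6 and 152 bases in cox12.

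Upstream, cox8 stood apart in sequence. An annotated long terminal repeat (a remnant of a retrotransposon) of 358 bases begins 122 bases from the annotated start of cox8, at 3043430 to 3043787 of chromosome I, in the 756 bases that separate cox8 from med9. Of all 25-base words in that span, 37.6% occurred elsewhere on the chromosomes, with up to 83 copies. Such words made up 0.4% of the span upstream of cox7 and 0.0% of those upstream of cox4, cox5, cox6, cox9, cox12 and cox13. Upstream spans with a share at least that of cox8 belonged to 2.81% of 4238 protein-coding genes. The 250 bases of the repeat nearest to cox8 are shown because cox8 had the highest share of repeated words upstream among the 9 genes. Whether the intergenic probe named for cox8 covers it is not known. They are I:3043430-3043679, minus strand, from RefSeq ASM294v3, and capitals mark the 205 bases covered by words found elsewhere.
cox8 upstream repeat: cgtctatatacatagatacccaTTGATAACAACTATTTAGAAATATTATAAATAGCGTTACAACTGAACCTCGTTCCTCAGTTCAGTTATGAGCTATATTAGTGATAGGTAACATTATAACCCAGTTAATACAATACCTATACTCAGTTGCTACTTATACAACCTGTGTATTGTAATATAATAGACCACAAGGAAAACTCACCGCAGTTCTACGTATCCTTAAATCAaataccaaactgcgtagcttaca

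The letters CCAAT were searched on both strands (ATTGG on the other) in the 250 bases before each annotated transcript start. They were present for 4 of the 9 genes (cox4, cox5, cox7 and cyc1), against 35.3% of 5112 protein-coding genes. With 3 matches cyc1 had the most, and cox5 had 2, while 7.47% of all genes had at least 2. Adjacent ATTGG matches lie 107 and 102 bases before the cyc1 start, inside the annotated transcript of the gene SPCC191.06, which ends just within cyc1. The matches of the 3 genes with probes are shown in 30-base stretches on the gene's strand with the motif in capitals.
cyc1, III:1714505-1714534: aaaggtaaacATTGGATTGGctcgccatgt
cyc1, III:1714544-1714573: gagagctcatgaaCCAATgaaataagggcg
cox5, III:1357750-1357779: tgtgCCAATgggactcccgaggATTGGcgt
cox4, I:711087-711116: aggcaatagtaatATTGGaacttccccatt
A match describes these letters and was not tested for binding. No match was found in this window for cox6, cox8, cox9, cox12 and cox13. Of the CCAAT-binding regulators, php3 (0.09) and php4 (0.08) did not pass the expression test and php2 and php5 were not analysed here.

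The expression comparison asked how RNA levels on the arrays labelled pst3 repressed differed from wild type. Among the 8 genes, cox8 was higher and the other 7 did not pass the test. Differences were above 0 for all 8 genes, with a median of 0.73 on the log2 scale. The median over all 4514 genes tested was -0.03, and 48.8% of them were above 0. Against wild-type replicates 6 to 8 alone, cox9 (-0.06) and cox13 (-1.15) were below 0 and the rest of the 8 above it. limma with Benjamini-Hochberg adjustment called 1 of the 8 genes at 0.05, while it called 9.86% of all genes, and 4.74% of all genes were called higher. For cox4 and cox8 the lower of the labelled arrays still exceeded the highest wild-type array, a pattern shown by 12.7% of all genes. One called gene of 8 is close to the share over all genes.

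The cox8 gene encodes subunit VIII, a small membrane subunit. Its log2 levels were 11.73 and 13.27 on the arrays labelled pst3 repressed, against a lowest of 8.98, a median of 10.59 and a highest of 11.18 on wild-type arrays. Both labelled arrays were high and the groups did not overlap, but the labelled arrays lay farther apart than 1 log2 unit. The difference was 2.16 (SE 0.59, 4.47-fold, limma adjusted p = 0.0371). Set against each wild-type print separately it held, at 2.31 with replicates 1 to 5 (limma adjusted p = 0.0355) and at 1.92 with replicates 6 to 8 (limma adjusted p = 0.0339). With only replicate 1 labelled pst3 repressed the difference was 1.39 (limma adjusted p = 0.392), with only replicate 2 it was 2.93 (0.0995), and a random block for the print gave 2.14 (0.129). Over 25 alternatives the difference stayed above 0, and the adjusted p ranged from 0.0117 to 0.392, passing in 15 of them.

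Some cox8 spots were flagged by the scanner software. On wild-type replicate 3 all cox8 spots carried flags, and on replicate 5 those of the first spot set (the probe was printed in duplicate sets on most arrays) did. With flagged spots left out, an alternative chosen after seeing the data, cox8 levels were 12 and 13.56 on the arrays labelled pst3 repressed and 10.09 to 11.47 on the 7 wild-type arrays left. The difference was then 1.97 (limma adjusted p = 0.0117). The mvd1 gene covers nearly all of cox8 on the other strand, and where its probe lies is not known. The mvd1 probe had levels of 10.04 and 11.82 on the labelled arrays and 11.46 to 12.76 on wild-type arrays. Its difference was -1.29 (SE 0.49, limma adjusted p = 0.118), of opposite sign to cox8.

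The cox4 gene encodes subunit IV, which in budding yeast is the zinc-binding subunit on the matrix side. It had levels of 13.38 and 13.09 on the arrays labelled pst3 repressed, against 10.73, 12.22 and 12.84 as the lowest, median and highest wild-type values. The labelled arrays lay just above the wild-type range. The difference of 1.17 (SE 0.50) did not pass the test (limma adjusted p = 0.164). Taking only replicates 6 to 8 as wild type gave 1.76, which passed (limma adjusted p = 0.0283), and taking only replicates 1 to 5 gave 0.82 (limma adjusted p = 0.144). It also passed with wild-type arrays of 1 title code averaged (limma adjusted p = 0.0369, SE 0.35). Most title codes join arrays of both wild-type prints, so that averaging mixes the prints and leaves less wild-type spread. The spot sets of replicate 1 labelled pst3 repressed disagreed for cox4, at 14.14 and 12.84, a gap larger than the difference itself.

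The cyc1 gene encodes cytochrome c, the carrier that feeds the oxidase. It had levels of 14.27 and 13.49 on the arrays labelled pst3 repressed, against 8.76, 12.90 and 13.67 as the lowest, median and highest wild-type values. Wild-type arrays fell into separate ranges, 8.76 to 9.96 on replicates 6 to 8 and 12.46 to 13.67 on replicates 1 to 5. The difference from all wild-type arrays was 2.09 (SE 1.26, limma adjusted p = 0.335). Taking only replicates 6 to 8 as wild type gave 4.58 (limma adjusted p = 4.3e-05), and taking only replicates 1 to 5 gave 0.60 (limma adjusted p = 0.374). The cyc1 probe was not above empty spots on wild-type replicates 6 and 8. The size of the cyc1 difference thus followed which wild-type print it was set against.

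The genes cox5, cox6 and cox9 showed smaller differences. For cox6, the counterpart of a matrix-side subunit in budding yeast, levels were 12.16 and 11.47 on the arrays labelled pst3 repressed, against 8.18, 11.32 and 12.02 as the lowest, median and highest wild-type values. The lowest value came from replicate 3, where the cox6 spots were flagged and not above empty spots. The difference was 0.82 (SE 0.78, limma adjusted p = 0.559). For cox5, subunit V, levels were 11.75 and 11.36 on the labelled arrays and 10.32 to 11.85 on wild-type arrays, with a difference of 0.48 (SE 0.44, limma adjusted p = 0.542). For cox9, named subunit VIIa in RefSeq, they were 10.63 and 11.44 on the labelled arrays and 9.59 to 11.54 on wild-type arrays, with a difference of 0.64 (SE 0.51, limma adjusted p = 0.485). In cox5, cox6 and cox9 the groups overlapped.

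The subunits VIb (cox12), which faces the intermembrane space, and VIa (cox13) differed least. For cox12 the arrays labelled pst3 repressed disagreed, at 9.05 and 11.12, with replicate 1, like wild-type replicate 6, not above empty spots and a wild-type range of 8.34 to 10.56. Its difference was 0.36 (SE 0.63, limma adjusted p = 0.782). For cox13 levels were 11.09 and 11.44 on the labelled arrays and 9.82 to 12.81 on wild-type arrays, with a difference of 0.06 (SE 0.70, limma adjusted p = 0.974). That difference was 0.79 with replicates 1 to 5 as wild type and -1.15 with replicates 6 to 8, neither past the test.

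**Figure D1:**
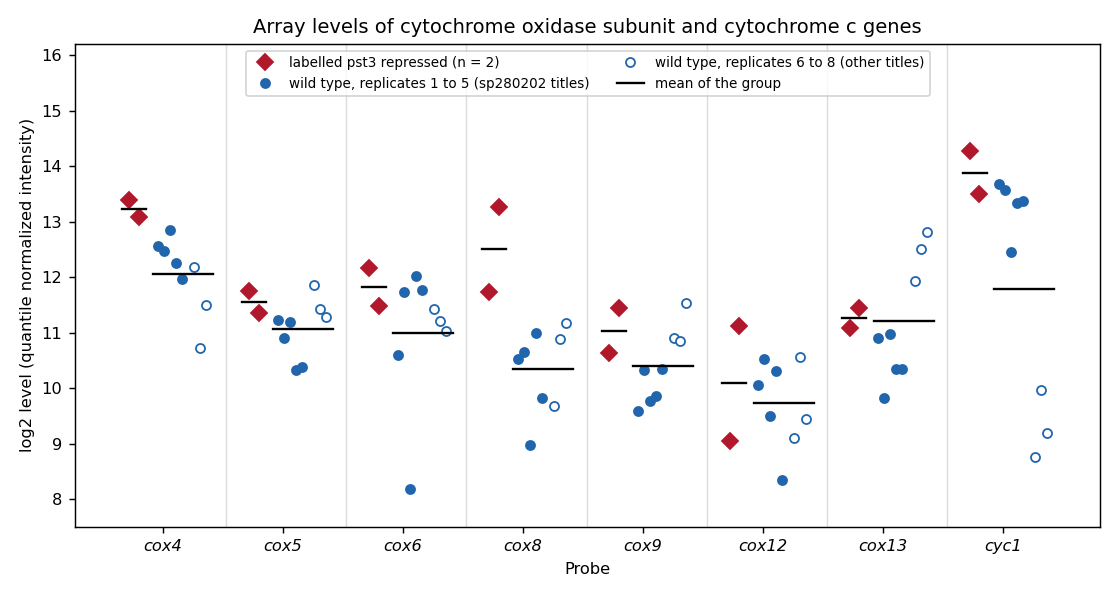
Quantile normalized log2 levels (y axis) of the 8 probes (x axis) on each array: diamonds are the 2 arrays labelled pst3 repressed, filled circles wild-type replicates 1 to 5, open circles wild-type replicates 6 to 8, and lines group means. Both diamonds lie above all wild-type points for cox4 and cox8, and the open circles of cyc1 (8.76 to 9.96) lie far below the filled ones (12.46 to 13.67).

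**Figure D2:**
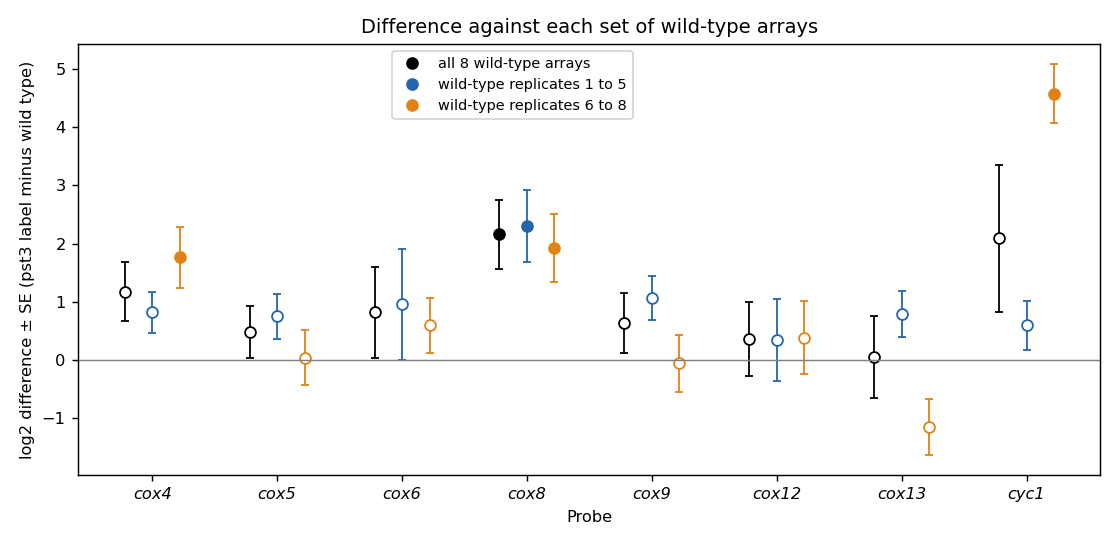
Log2 difference of the arrays labelled pst3 repressed minus wild type with its SE (y axis), for each probe (x axis), against all 8 wild-type arrays (black), replicates 1 to 5 (blue) and replicates 6 to 8 (orange). Filled points passed an adjusted p of 0.05 in limma: cox8 is filled in all sets, cox4 and cyc1 only against replicates 6 to 8.

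Wild type alone gave the spread that no pst3 label explains. Replicates 6 to 8 minus replicates 1 to 5 differed in limma for 10.5% of all genes, and for 2 of the 8 genes. For cyc1 the means were 9.30 on replicates 6 to 8 and 13.28 on replicates 1 to 5, a difference of -3.98 (SE 0.39, limma adjusted p = 0.000282). Only 1 of the 3 arrays of replicates 6 to 8 was above empty spots for cyc1. The 95th percentile of empty spots was itself high there, 807.9 to 2916 on replicate 6 and 1246 to 4681 on replicate 8. On replicate 7, where cyc1 exceeded it, it was 123.2 to 149.5. Whether cyc1 lay at background on replicates 6 and 8, and so the size of that difference, is not settled. For cox13 they were 12.41 on replicates 6 to 8 and 10.48 on replicates 1 to 5, a difference of 1.94 (SE 0.37, limma adjusted p = 0.0106). The other 6 genes did not pass, with cox9 nearest (1.12, SE 0.33, limma adjusted p = 0.0535). Without wild-type replicate 8 cox13 no longer passed (1.74, limma adjusted p = 0.0653). Some wild-type arrays on different prints share a code in their titles. With that code as a fixed block, added after seeing the data, cyc1 passed (-3.83, limma adjusted p = 0.0185) and cox13 did not (2.04, limma adjusted p = 0.0745). The median wild-type SD was 0.77 for the 8 genes and 0.67 over all genes.

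The 8 genes did not vary as a unit over the wild-type arrays. With the mean of each wild-type print taken off, pairwise Pearson correlations over the 8 arrays ran from -0.76 to 0.75 with a median of -0.06 over 28 pairs. Arrays share their print, RNA source and scan, so these values only describe them. The genes outside the list most like the mean of the 8 were pcm1 (r = 0.94), the mRNA cap methyltransferase, nup45 (0.93), a nucleoporin, rec7 (0.92), a meiotic recombination protein, csn3 (0.91), a COP9 signalosome subunit, and dbp6 (0.88), an RNA helicase. They were picked as the highest correlations in a search over all genes outside the list, with no test. The median correlation of all genes with that mean was -0.09. Within 1 array, spot sets differed by a median of 0.11 to 0.32 on the log2 scale for the 8 genes, against 0.22 over all genes. The largest such gap was 3.41 for cox8.

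Partners of the oxidase were counted in the same test. Over all genes it called 9.86%, and it called 4.74% of all genes higher. These shares stand beside each count below, and no list was tested as a set. Of 16 measured cytochrome oxidase assembly genes cox18 was higher, oxa102 was lower and 14 did not pass, with a median difference of -0.07. The cox18 gene, for an inner-membrane assembly protein, had levels of 11.57 and 11.28 on the arrays labelled pst3 repressed and 7.88 to 9.26 on wild-type arrays (2.62, SE 0.43, limma adjusted p = 0.00319), of which 6 of 8 were above empty spots. The oxa102 gene, for a membrane translocase, was not above empty spots on either labelled array and was at least 20.8-fold lower there (limma adjusted p = 2.29e-05), with wild-type levels of 11.38 to 12.87. The probe carries an older name, oxa1sp2.

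In complex III, which passes electrons to cytochrome c, 0 of 13 measured genes were higher and qcr6 was lower, at 6.77 and 8.58 on the labelled arrays and 10.10 to 11.46 on wild-type arrays (-3.02, SE 0.51, limma adjusted p = 0.00353), above empty spots on 1 of the 2 labelled arrays. The median over complex III was -0.10. In the list of complex II and electron entry the median was 1.06. There 0 of 10 measured genes were lower and 3 were higher, against 4.74% of all genes called higher. They were gut2, the mitochondrial glycerol-3-phosphate dehydrogenase (2.19, SE 0.57), dld1, which RefSeq names a dihydrolipoamide dehydrogenase, an enzyme that feeds no electrons to the chain directly (1.90, SE 0.53), and sdh7, an ACN9 family protein (1.5, SE 0.44), which was above empty spots on 6 of the 8 wild-type arrays. Their limma adjusted p-values were 0.0301, 0.0398 and 0.0464.

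Of 16 measured nuclear genes of ATP synthase, which uses the proton gradient, 2 were higher, 1 was lower and the median was 0.50. The stator gene atp7 (1.54, SE 0.39) and the inhibitor gene inh1 (1.77, SE 0.48) were higher, and atp3, the gamma subunit gene, was lower (-1.92, SE 0.38), with limma adjusted p-values of 0.0269, 0.035 and 0.00859. None of 11 measured heme and cytochrome c maturation genes passed limma over all genes, with a median of -0.14, and 2 of them, named after their values were seen, had an unadjusted p under 0.05. They were cyt2 (-2.58, limma adjusted p = 0.0892) and cyc2 (-1.27, limma adjusted p = 0.165). Mitochondrially encoded core genes had no probe on all 10 arrays and were not analysed here.

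The Pst3-GFP arrays asked which intergenic regions Pst3 binds. Of the 8 regions carrying their names, limma called 0 at an adjusted p of 0.05, where 1.71% of 4913 regions were called. At an unadjusted p under 0.05 the count of the 8 was also 0. The smallest adjusted p of the 8 in limma was 0.736. Each value is the log2 of the immunoprecipitate's signal over the authors' reference intensity for the region, centred on the median. For the 8 regions that reference was the same value on both arrays, so the SE leaves out its error. Probe names do not say on which side of the gene a region lies. Only 3 of 8 regions had the same sign on both arrays, and the median gap between the arrays was 1.57 on the log2 scale.

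The region of cox6 had the highest mean, 1.24 (SE 0.84), from 1.28 on replicate 1 and 1.20 on replicate 2. That SE was the same for every region listed here. It is thus a spread shared over regions and does not measure the gap between the arrays for cox6. Its signals on replicate 2 were 1462 and 1257 in the spot sets, at the limit of spots named as missing (1336.6 and 1342.7 at their 95th percentile), and its reference of 223.5 was at percentile 9.4. For cox12 the ratios were 1.66 on replicate 1 and -0.05 on replicate 2. For cox5 they were -0.99 and 1.02, for cox9 -1.05 and 0.95, and for cox4 -1.38 and -0.06. These 4 regions thus differed in sign or size between the arrays. For cox13 they were -0.08 and -0.84, and for cyc1 0.97 and -0.46. Over all regions, the rank correlation between ratio and reference was -0.083 on replicate 1 and -0.912 on replicate 2.

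The cox8 region was the brightest of the 8 on every Pst3-GFP scan. Its signals were 11646.5 and 10820.5 on replicate 1 and 4571 and 4362 on replicate 2, at percentiles of 98.0 to 99.7 of all regions. Its reference was as extreme, 4806.5 at percentile 99.1, and its ratios were 0.92 on replicate 1 and -1.51 on replicate 2. The ratio thus pointed in opposite directions while the signal itself was high on both arrays. Background was not subtracted from these signals. For cox8 it was 13.5 and 14 on replicate 1 and 1024 and 1264 on replicate 2. The mean ratio of cox8 was -0.295 as given, 0.12 with normexp and 0.45 with subtraction. Regions named for genes whose upstream span had at least 25% of its words repeated had references above the 95th percentile in 22.9% of 96 cases, against 3.2% of 3627 other regions. That threshold was set after seeing the data, and the part of the repeat in the cox8 signal was not tested.

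**Figure D3:**
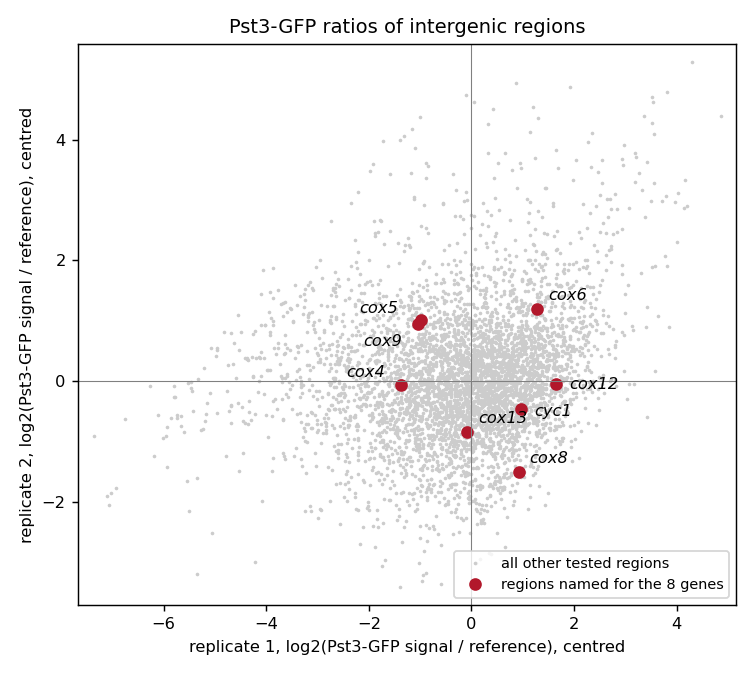
Centred log2 ratios of Pst3-GFP signal over the authors' reference on replicate 1 (x axis) and replicate 2 (y axis) for all tested intergenic regions (grey) and those named for the 8 genes (red). The red points spread over all quadrants, with cox6 (1.28 and 1.20) alone in the upper right.

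**Figure D4:**
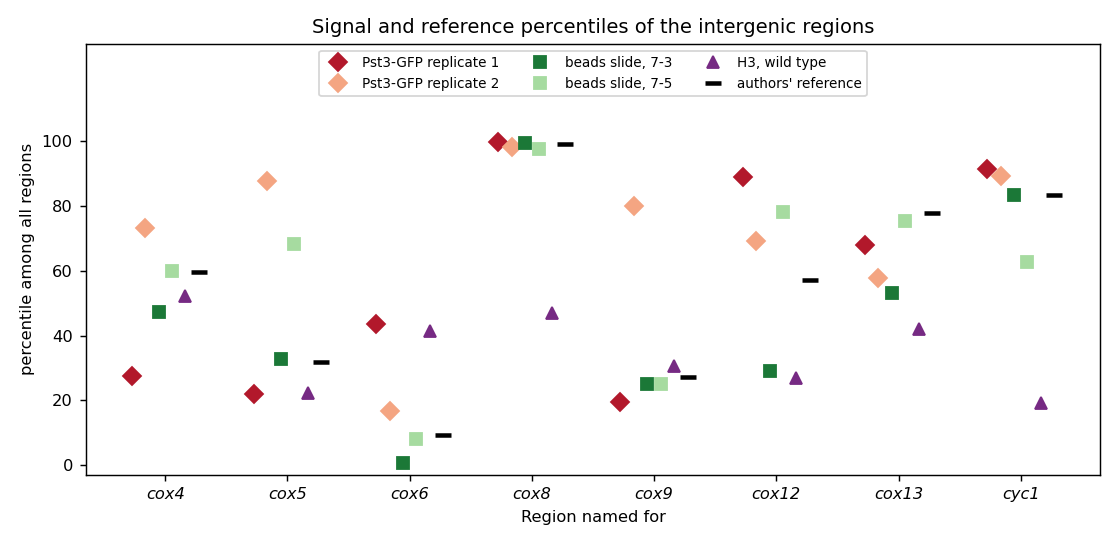
Percentile among all intergenic regions (y axis) of the signal on the Pst3-GFP arrays, the scans of the beads slide and the wild-type H3 array, each averaged over spot sets, and of the authors' reference, for the regions named for the 8 genes (x axis). The cox8 region is near the top in all but H3.

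The Pst3-GFP experiment with beads was deposited as scans numbered 7-3 and 7-5, which share a slide name in their titles and were taken as channels of 1 slide. The labels do not settle which scan holds which DNA, so only sizes are given, with no test. The gaps between scans were centred over all probes first, so each is relative to the typical probe and differs from that of the raw signals. On intergenic probes the centred gaps of cox8 and cyc1 were at least 2-fold in both spot sets, as were those of 22.9% of all regions. The centred gap of cox8 was 4.10 and 4.24 on the log2 scale. With normexp background correction the gap was smaller, with centred ratios to the reference of 3.18 in 7-3 and 0.39 and 0.24 in 7-5. The typical 7-5 probe lay below missing spots, as a signal of 1027 was at percentile 50.54 and their 95th percentile was 1555.6. The size of the cox8 gap is thus not settled. The centred gaps of the other 6 regions were 0.68 or smaller. Raw signals of cox8 were 9262 in 7-3 and 3358 and 3037 in 7-5, and it was the only one of the 8 above missing spots in 7-5, so the size of the cyc1 gap was not measured. The intergenic 7-3 files held identical values, so they count as 1 spot set.

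On coding probes the centred gaps of cox8 and cyc1 were again at least 2-fold in both spot sets, as were those of 32.8% of all coding probes. The signals in 7-3 were 1077 and 1063.5 for cox8 and 2217 and 2129 for cyc1, and none of the 8 probes exceeded missing spots in 7-5, so no size is given. With 2 of 8 genes the share was near that of all probes in both probe types.

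Histone H3 arrays carry DNA bound by the core histone. The 2 files of each hst2D and hst4D sample correlated at only 0.175 to 0.33 over all probes, while a file labelled hst2D and another labelled hst4D correlated at 0.604 on intergenic and 0.759 on coding probes. On each probe type the most alike of these files thus carried different labels. Which channel a file holds is not settled by the labels, and no comparison between strains is made. Signals of the 8 regions on the intergenic arrays were 479 to 905 labelled hst2D, 458.5 to 926 labelled hst4D and 710 to 1140 in wild type. At most 1 of the 8 exceeded missing spots in any of these files.

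The wild-type H3 files correlated at 0.8 on intergenic and 0.798 on coding probes. The intergenic ratio to the reference was lowest for cox8, at -2.89 and -2.93 in the spot sets, and highest for cox6, at 1.35 and 1.54. Those regions had the highest and lowest reference of the 8, and over all regions ratio and reference had a rank correlation of -0.919. On coding probes, cox5 and cyc1 exceeded missing spots in both spot sets. Their ratios were 0.72 and 0.43 for cox5 and -0.58 and -0.63 for cyc1, and cox12 was lowest at -1.15 and -1.52 with signals of 545 and 418, below missing spots.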

How the data were processed

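The genes and partner lists were chosen with earlier results of these data known. Per the file headers, each deposited file lists, spot by spot, the intensity of the signal and of its surround, and chromatin files add the authors' reference intensity. The sources used here name neither scanner nor filters. Deposited value tables, on a log2 scale per the values, have row numbers that match no probe column and were not used.

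Intensities were background-corrected with normexp (offset 50), except in channels whose background was 0 in at least 90% of spots. Spot sets were averaged, channels quantile normalized and averaged by array, and limma's lmFit and eBayes applied to 2 against 8 arrays with Benjamini-Hochberg adjustment at 0.05. Of 4695 genes on all 10 arrays, 181 with names on plates that appeared exchanged on the pst3 print were left out (known from earlier work on these data, with none of the 8 genes among them), which left 4514. Chromatin signals were divided by the reference, log2 transformed and median centred. A probe was called above empty spots where its net signal exceeded their 95th percentile. Named genes were all members, pst3, up to 4 genes per partner list with the smallest p among those past 0.05, and the 5 most like the members' mean. Probes listed under more than 1 symbol counted once. Fits were tested on simulated data. For expression the simulated arrays were drawn independently and without a print effect, so the mixing of print and label was not tested there. The number of arrays limits the precision. R 4.3.3, limma 3.58.1 and Python 3.11.15 were used.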

Additional observations from a re-analysis of the deposited data

Results flagged for a closer look

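The cox6 level on wild-type replicate 3 was 8.18 on the log2 scale, far from the next wild-type value of 10.60, a gap of 0.63 of the whole range over 8 arrays and past Dixon's critical value. All cox6 spots on that array carried scanner flags and were not above empty spots. With flagged spots left out, cox6 was 12.42 and 11.75 on the arrays labelled pst3 repressed and 10.74 to 11.95 on 7 wild-type arrays. The part of the failed spots in the low value was not tested. Chance gives about 1 such flag in 20 groups, and 8 were examined.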

How the results depend on the processing

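The count of 445 genes called, 214 higher and 231 lower, was 211 (106 and 105) with median centring, 169 (92 and 77) with a random print block, 739 (332 and 407) against wild-type replicates 1 to 5, 830 (412 and 418) against replicates 6 to 8 and 910 (460 and 450) with arrays of 1 title code averaged. With flagged spots left out it was 359 (260 and 99). Leaving out 1 array gave 48 to 557 genes, 19 to 277 higher and 29 to 280 lower, the lowest without replicate 1 labelled pst3 repressed and 88 without replicate 2. Of the 8 genes, 0 were called with median centring, cyclic loess, either spot set alone or the print block. Against replicates 6 to 8 or with title codes averaged 3 were called, where cox4 and cyc1 also passed (limma adjusted p = 0.0369 and 0.0394 with codes averaged). Most title codes join arrays of both wild-type prints, and the SE of cyc1 was 1.26 before averaging and 0.63 after it. Without 1 wild-type array 0 to 1 were called (0 without replicates 2, 5 or 6). The cox8 difference was 2.93 without labelled replicate 1 and 1.39 without labelled replicate 2. The median of the 8 stayed between 0.53 and 1.04 without 1 array.

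Signs turned for cox13 at -0.037 without background correction, -0.0616 with the print block, -0.12 without wild-type replicates 3 and 5, -1.15 against replicates 6 to 8, and over -0.14 to 0.29 without 1 array. They turned for cox9 at -0.0583 against replicates 6 to 8 and for cox12 over -0.68 to 1.39 without 1 array. The wild-type print count of 474 was 139 to 674 without 1 array, 73 with the title code as a fixed block and 431 with it as a random block. The Pst3-GFP count of 84 regions was 659 with normexp, 8 with subtraction, 7 by the first spot set, 0 by the second and 326 with normexp and loess. There cox8 turned to 0.12 with normexp and 0.45 with subtraction, and cox9 to 0.45, 0.46, 0.0049 with the second spot set and 0.75 with loess. The H3 median of the 8 regions (-0.38) was -0.55 and -0.21 by spot set, and that of coding probes (-0.12) was 0.12 with normexp. Causes were not tested. The deposited value tables were not run. No paired analysis was possible because replicate numbers came from accession order, and title codes join wild-type arrays only.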
